A study of Mus musculus with 3 samples.

Results

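The cells described here are postnatal neurons of the mouse neocortex that hold mRNA of Nos1, the gene of neuronal nitric oxide synthase, and of Lypd1, but none of Dach1. They were chosen by measured values: a member has more than 700 genes, less than 10% of its UMIs (unique molecular identifiers, each marking 1 captured mRNA molecule) from mitochondrial genes, at least 1 Nos1 UMI, at least 1 Lypd1 UMI, and 0 Dach1 UMIs. Of the 12324 cells of the series, 276 postnatal cells meet this rule, 55 of the 4440 cells of the P1 library and 221 of the 3406 cells of the P5 library. They make up 5.04% of the 5481 P1 and P5 cells that pass the limits on genes and mitochondrial UMIs. The share differs by library, at 2.20% (1.66 to 2.85) at P1 and 7.42% (6.50 to 8.42) at P5. The working name of these cells, long-range neurons, fits the markers read below, but where an axon runs cannot be read from counts, so they are called Nos1 and Lypd1 cells, or members.

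The study sorted GFP+ and DAPI negative cells from the neocortex of SstCre/+;RCE mice, a line also labelled RCEloxP, in which Cre under the control of Sst switches on a GFP reporter at the Rosa26 locus, so that any cell with a history of Sst expression can carry the label. All animals shared these alleles, and no treatment is recorded. Tissue was pooled from 6 animals at embryonic day 16.5 (E16.5) and from 3 animals each at postnatal days 1 and 5 (P1 and P5), and each pool gave 1 library made with 10x Genomics. The postnatal cells were spun through percoll to remove myelin, the P5 tissue alone received trypsin and DNAseI after the pronase, and the authors counted the P1 reads with Cell Ranger 3.0.2 and those of P5 with 3.1.0. With 1 library per stage, the effects of stage, library, dissociation, and software version cannot be told apart. Cells of 1 library are not replicates, so no test was made. The 95% intervals in parentheses, exact Poisson for summed UMIs and exact Clopper-Pearson for shares of cells, cover counting error only.

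Most inhibitory neurons of the neocortex send their axons to nearby cells, but a rare class that makes NOS1, somatostatin, and neuropeptide Y also reaches distant cortical areas. Its enzyme turns arginine into nitric oxide, a gas that diffuses to neighbouring cells and vessels and switches on soluble guanylyl cyclase, which makes the second messenger cGMP. LYPD1 is a small membrane-anchored protein of the Ly6 family, related in fold to snake toxins, that dampens nicotinic acetylcholine receptors, and DACH1 is a nuclear factor related to the SKI family of corepressors.

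The P1 library holds 15654107 UMIs with a median of 2680 per cell, and the P5 library 13429055 UMIs with a median of 3488. At P1, 2501 cells (56.3%) passed the limits, 1506 were left out for mitochondrial UMIs and 433 for few genes. At P5, 2980 cells (87.5%) passed, and 211 and 215 were left out for these reasons. The libraries share 6 cell barcodes, and 2 of the P5 members carry a barcode that also occurs in the P1 file, but 0 barcodes belong to a member in each. Members had a median of 5059 UMIs (1101 to 20497) and 2608 genes at P1 and of 3370 UMIs (1085 to 9655) and 1794 genes at P5, so depth per member was higher in the younger library. The mitochondrial share of the members had a median of 5.02% at P1 and 3.39% at P5, and ribosomal protein genes held 7.32% and 7.86% of their UMIs. No doublet caller was run, and an alternative left out the 10% of cells of each group with most UMIs.

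Among the cells with a Nos1 UMI that passed the limits, the members were 12.7% (9.69 to 16.2) of 434 at P1 and 40.4% (36.3 to 44.6) of 547 at P5. Nos1 cells with Dach1 and without Lypd1 were 98 cells or 22.6% (18.7 to 26.8) at P1 and 27 cells or 4.94% (3.28 to 7.10) at P5. These intervals cover the sampling of cells within a library and not the spread between animals or libraries, so with 1 library per stage a change of these shares with age was not tested. Cells with Nos1 but neither of the other genes were 278 and 284, and cells with all 3 genes were 3 and 15. Members were thus a minority of the Nos1 cells in each library, with a larger share at P5, and the groups rest on low counts of the genes that define them. As a share of all cells that passed, members were 2.20% (1.66 to 2.85) at P1 and 7.42% (6.50 to 8.42) at P5.

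The genes that chose the members are given as a description. Nos1 (ENSMUSG00000029361, chr5:117781032-117958840 on GRCm38) had 784 UMIs in P1 members, or 2571 CPM (counts scaled to a sum of 1000000, 2394 to 2758), and 2702 UMIs or 3309 CPM (3186 to 3437) in P5 members, with a median of 10 and 11 UMIs per cell and up to 59 and 36. Lypd1 (ENSMUSG00000026344, chr1:125867622-125913101) was scarcer, with 114 UMIs or 374 CPM (308 to 449) and 465 UMIs or 569.5 CPM (519 to 624), against 8.19 and 16.3 CPM in the cells without Nos1. The absence of Dach1 (ENSMUSG00000055639, chr14:97786853-98169765) is likewise part of the rule. A typical member therefore carried many Nos1 molecules but few of Lypd1: exactly 1 Lypd1 UMI was found in 35 of 55 members (63.6%) at P1 and in 106 of 221 (48.0%) at P5, whereas exactly 1 Nos1 UMI was found in 9 (16.4%) and 15 (6.79%). At least 10 Nos1 UMIs were found in 30 members (54.5%) at P1 and 126 (57.0%) at P5.

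Cells close to the thresholds were read for Npy, the neuropeptide Y precursor, and Mef2c, a transcription factor of other interneurons. Members with exactly 1 Nos1 UMI had 9398 CPM of Npy and 1397 CPM of Mef2c at P1 and 14609 and 955 CPM at P5, while the 44 and 197 members with at least 3 Nos1 UMIs had 34065 and 125 CPM at P1 and 42507 and 92.0 CPM at P5. The 9 P1 cells include the member with 20497 UMIs and excitatory markers described below, and without it, an exclusion chosen after seeing the data, the other 8 had 14719 and 1169 CPM. Members with exactly 1 Nos1 UMI thus had less Npy and more Mef2c, with or without that cell, whereas the 2 P1 members with 2 Nos1 UMIs had 43897 and 235 CPM and the 9 P5 ones 25213 and 820.4 CPM. Just outside the rule, the 41 and 105 cells with Lypd1 but no Nos1 had 1395 and 1686 CPM of Npy, and the Nos1 cells with neither other gene had 18899 and 30786 CPM. The 2 and 15 cells that miss the rule by 1 Dach1 UMI had 35063 and 41353 CPM. A further 7 P1 cells and 1 P5 cell failed the limit on mitochondrial UMIs alone, at 36964 and 77386 CPM of Npy, and 4 P5 cells failed the limit on genes alone, with 423 to 640 genes and 115486 CPM.

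**Figure D1:**
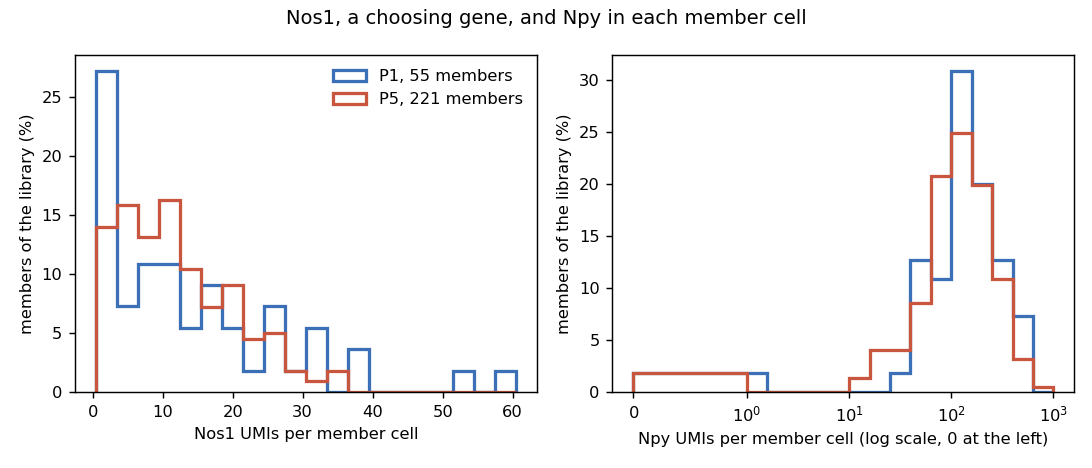
Number of Nos1 and of Npy UMIs per member cell, as the percentage of the 55 P1 members and of the 221 P5 members. Nos1 was used to choose the cells and Npy was not.

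The members carry transcripts of cortical inhibitory neurons, and almost all of them carry Npy, which the rule did not use. At least 10 Npy UMIs were found in 53 of 55 members (96.4%, 87.5 to 99.6) at P1 and in 217 of 221 (98.2%, 95.4 to 99.5) at P5, with a median of 142 and 110 UMIs per member. No Npy UMI was found in 1 P1 member and 4 P5 members, whose median was 1 Nos1 UMI in each library. At least 1 UMI of Lhx6, Gad1, Gad2, or Slc32a1, which encode the transcription factor of neurons from the medial ganglionic eminence, the enzymes that make GABA, and the transporter that loads it into vesicles, was found in 53 (96.4%) and 216 (97.7%) members.

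Shares of cells with a UMI grow with depth, so they are given beside those in the cells of the same library with markers of excitatory neurons (28 and 22 cells, at least 3 UMIs of Neurod2, Neurod6, Slc17a7, and Tbr1 and 0 Nos1 UMIs), whose median depth was 5262 and 4154 UMIs. Npy was detected in 98.2% of members at P1 and 98.2% at P5 against 67.9% and 27.3% of the excitatory-marker cells. Chodl, which encodes the lectin-like membrane protein chondrolectin, was detected in 78.2% and 75.1% of members against 3.57% and 0 of 22 (3 counts of the total allow up to 13.6% with a UMI), and Tacr1, the receptor of substance P, in 41.8% (28.7 to 55.9) and 39.8% (33.3 to 46.6) against 3.57% and 18.2%. After every cell was thinned at random to 2000 UMIs, which left out 4 and 31 members and 3 and 2 excitatory-marker cells, Npy was found in 96.1% and 97.9% of members against 48.0% and 20.0%, and Chodl in 52.9% and 61.1% against 4% and 0 of 20, and Tacr1 in 21.6% and 23.2% against 0% and 10.0%. Dach1 cells also carried them, with Tacr1 in 53.1% and 55.6% (34.8% and 21.1% thinned), Chodl in 67.3% and 55.6%, and Npy in all 98 and 27 cells. Lhx6, at 87.3% and 71.0% of members against 14.3% and 9.09%, and Gad2, at 76.4% and 75.6% against 3.57% and 4.55%, mark the members as inhibitory. Meis2 and Pvalb, which mark other GABA neurons, were found in 0 of 55 and 0 of 221 members, which by 3 counts of the total allows up to 5.45% at P1 and 1.36% at P5 with a UMI and sets no limit on cells that express these genes below detection.

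Lists of markers of other cell types were read in the members as summed levels. The 10 excitatory genes had 54 UMIs (177 CPM, 133 to 231) in P1 members, from 7 genes with Slc17a7, the vesicular glutamate transporter, most abundant at 19 UMIs, and 0 UMIs (3 UMIs would be 3.67 CPM) in P5 members, against 61.1 and 27.2 CPM in cells without Nos1. All 54 UMIs came from 1 P1 member, the deepest at 20497 UMIs, which had 1 Nos1 UMI and 0 Npy UMIs and also carried all 128 UMIs of Nrgn, the gene of the postsynaptic protein neurogranin, found in P1 members. Emx1 and Bhlhe22 were at 0 in all members, and counts without this cell, an alternative chosen after seeing the data, are given in the closing part. The 10 astrocyte genes had 52 UMIs (170.5 CPM) at P1 and 724 UMIs (887 CPM) at P5 against 211 and 772 CPM, led by Mt3, a metallothionein also made by neurons, at 23 and 683 UMIs, while Aqp4, Gfap, Gja1, and Slc1a3 were at 0. The 9 oligodendrocyte genes had 24 UMIs (78.7 CPM) and 52 UMIs (63.7 CPM) against 54.8 and 67.4 CPM, led by Mbp at 17 and 34 UMIs, with Olig1, Olig2, Sox10, Cspg4, and Mog at 0. The 9 microglia genes had 4 UMIs (13.1 CPM) and 3 UMIs (3.67 CPM) against 9.14 and 19 CPM, with C1qa and Cx3cr1 at 0, and the 10 vascular and blood genes had 0 and 3 UMIs against 4.75 and 4.31 CPM, 2 of them of Pecam1, with Cldn5, Flt1, and Kdr at 0.

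Other classes of inhibitory neuron were covered in the same way. The 10 genes of Meis2 cells and of neurons from the caudal ganglionic eminence summed to 28 UMIs (91.8 CPM) and 52 UMIs (63.7 CPM) in members against 492 and 406 CPM in cells without Nos1, with Cnr1, the cannabinoid receptor, most abundant at 15 and 28 UMIs and Meis2, Sp8, Pax6, Htr3a, and Vip at 0. The 6 genes of basket and chandelier cells summed to 118 and 160.5 CPM against 189 and 195 CPM, led by the potassium channel gene Kcnc1, with Pvalb and Pthlh at 0. The 11 Martinotti markers summed to 1184 and 1596 CPM against 2372 and 3650 CPM, led by Grin3a, and the 11 markers of other Sst interneurons to 1804 and 986 CPM against 5712 and 3658 CPM, led by Sox4. Members thus held less of these lists than the remaining sorted cells, except that for basket and chandelier genes at P5 the intervals overlap (134 to 190.4 and 186 to 203 CPM), and the part of mixed droplets in what they held was not tested.

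For the comparisons, UMIs of the cells of each group and library were added up and scaled to 1000000 outside mitochondrial genes and the 3 gating genes, 10 CPM were added to each side of a ratio, and a gene was compared when its mean over the groups compared was at least 100 CPM. A gene counts as higher or lower past 2-fold, that is, a log2 ratio beyond 1 or -1. At this depth, 1 UMI in members is 3.28 CPM at P1 and 1.22 CPM at P5.

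Against the cells without Nos1 of the same library, 2067 at P1 and 2433 at P5, members had 36 of 1721 compared genes higher in each library (2.09%) and 54 lower (3.14%). For all 90 the intervals of the groups do not overlap. With sums of this size every gene past 2-fold in either library had such intervals, so this is no added support. Which direction had more genes depended on the settings: 34 were higher and 30 lower under stricter limits on cells, and 18 and 14 with a minimum of 200 CPM. Chodl and Npy had the largest ratios and Zeb2 the smallest, ordered by the library where the ratio is closer to 0. By library, 53 genes were higher and 91 lower of 2233 at P1, and 58 and 88 of 2060 at P5, with medians over all genes of -0.01 and -0.07. The lists that the study drew up on these same libraries are no independent evidence of direction: of its long-range genes 35 of 63 compared in each library were higher and 0 lower, of its Martinotti genes 0 of 15 higher and 10 lower, and of its genes of other Sst interneurons 0 of 15 higher and 7 lower. Their median log2 ratios were 1.28 and 1.51, -1.52 and -1.43, and -0.95 and -1.58 at P1 and P5. A shorter list of 15 genes of long-range Nos1 neurons lies wholly within the study's list, so it is no independent evidence either: 10 were compared in each library and all 10 were higher, with medians of 2.70 and 2.87. Here and below, a median is taken over the genes of a list compared in that library.

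Npy (ENSMUSG00000029819, chr6:49822710-49829507) stood at 29976 CPM (29364 to 30597) in P1 members and 40115 CPM (39682 to 40552) in P5 members against 1471 and 925 CPM in cells without Nos1, log2 ratios of 4.34 and 5.42. It was the most abundant gene of the long-range and peptide lists in members. Sst, the gene of somatostatin whose promoter drives the Cre here, was present in all groups and higher in members than in cells without Nos1, at 5103 and 3923 CPM against 1695 and 1512 CPM (1.58 and 1.37), but stood at 9164 and 5862 CPM in Dach1 cells and at 4494 and 4512 CPM in Nos1 cells with neither gene. Crhbp, which encodes a secreted protein that binds the stress peptide CRH, had 338 and 453 CPM against 61.6 and 114 CPM (2.28 and 1.90). All 3 genes of the neuropeptide list compared in each library, Crhbp among them, were thus higher in members than in cells without Nos1. Of 7 compared genes for peptide processing 2 were higher and 0 lower: Pcsk2, a convertase that cleaves peptide precursors, at 502 and 272 CPM against 115 and 56.5 CPM, and Pam, the enzyme that amidates the end of neuropeptide Y, at 335 and 318 CPM against 131 and 102 CPM. Penk, the enkephalin precursor, was low at P1, with 15 UMIs or 49.2 CPM (27.5 to 81.1), and stood at 156 CPM (129.7 to 185) at P5, against 11.5 and 18.2 CPM. Cort, the gene of cortistatin, which resembles somatostatin, went the other way, at 9.84 and 56.3 CPM against 181 and 574 CPM.

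Genes around nitric oxide and cyclic nucleotides were read apart from Nos1. Of 9 compared in each library 3 were higher and 0 lower, and the list's medians were 0.44 and 0.33. Gucy1a1, a subunit of the guanylyl cyclase that senses nitric oxide, had 387 CPM (320.3 to 463) in P1 members and 383 CPM (342 to 428) in P5 members against 126 and 55.2 CPM. Pde1a, a calcium-activated enzyme that breaks down cyclic nucleotides, had 489 and 709 CPM against 32.8 and 77.5 CPM (3.54 and 3.04). Cygb, which encodes cytoglobin, a haem protein that can consume nitric oxide, had 551 and 1091 CPM against 115 and 140.3 CPM (2.17 and 2.87). Members were chosen by the gene of the synthase. As a group they also held mRNA of a sensor subunit and of proteins that act downstream of the gas or remove it. These are sums over cells, and whether single cells held them together was not tested.

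Receptors and channels of the members differed from those of the other cells in both directions. Tacr1 (ENSMUSG00000030043, chr6:82402334-82560104) had 125 CPM (88.2 to 171) and 167 CPM (139.8 to 197) against 4.63 and 3.06 CPM, and Chrm2, a muscarinic acetylcholine receptor, had 171 and 258 CPM against 18.2 and 33.0 CPM (2.68 and 2.64). The ratios of Tacr1 were 3.20 and 3.76, though neither gene reached the minimum mean in each library. Of the 4 compared subunits of the GABA-A receptor, 2 were higher, Gabra2 at 554 and 753 CPM against 116 and 111 CPM and Gabrb1 at 161 and 273 CPM against 64.1 and 108 CPM. These encode an alpha and a beta chain of the channel that GABA opens. Among ion channels 2 of 18 were higher, Scn9a, a sodium channel gene (1.40 and 1.58), and Cacna1e, a calcium channel gene (1.5 and 1.70). Another 2 were lower, the calcium channel subunit gene Cacna2d2 (-1.03 and -1.05) and the potassium channel gene Kcnq3 (-1.62 and -1.57), with list medians of -0.11 in each library. At P1 only 1 was lower when each cell weighed the same, without the member with excitatory markers, or with at least 3 Nos1 UMIs. At P5 the number was 1 when ratios were centred on their median, and 3 when each cell weighed the same or with at least 3 Nos1 UMIs.

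On the side of lower receptors, 5 of 17 glutamate receptor genes and partners were lower and 0 higher, with medians of -0.41 and -0.45. Neto2, an auxiliary subunit of kainate receptors, had 105 and 62.5 CPM in members against 373 and 407 CPM, and its relative Neto1, the AMPA receptor subunit gene Gria3, the AMPA receptor partner gene Cacng2, and the synaptic adhesion gene Elfn1 were the others. Of 6 compared receptors for modulators 0 were higher and 2 lower. Grm5, a metabotropic glutamate receptor, had 134 and 120.0 CPM against 706 and 538 CPM (-2.31 and -2.07), and Cnr1 had 49.2 and 34.3 CPM against 227 and 228 CPM (-2 and -2.42). Cnr1 was also the 1 compared gene of the list for Meis2 cells and the caudal eminence. Erbb4, the neuregulin receptor of many interneurons, had 78.7 and 36.7 CPM against 359 and 181 CPM (-2.06 and -2.03).

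Transcription factors lay on both sides, with 3 of 28 compared in each library higher and 8 lower. Pou3f2 (ENSMUSG00000095139, chr4:22482780-22488366), a POU domain factor, had 453 CPM (380.2 to 535) and 326 CPM (288 to 367) in members against 61.3 and 15.1 CPM (2.70 and 3.74). Sp9, a zinc finger factor of ganglionic eminence neurons, had 544 and 463 CPM against 86.0 and 44.4 CPM, and Sox2, best known from neural progenitors, had 728 and 397 CPM against 219 and 130.4 CPM. Its relative Sox1 was at 141 and 98.0 CPM against 101 and 31.9 CPM, and past the limit at P5 alone (0.45 and 1.37). Zeb1 and Tshz2, zinc finger factors below the minimum in the combined count, had 72.2 and 60 CPM against 10.9 and 9.76 CPM and 78.7 and 84.5 CPM against 17.9 and 8.52 CPM.

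Among the lower factors, Zeb2 (ENSMUSG00000026872, chr2:44983632-45117395), which acts in the fate of interneurons from the medial eminence, had 62.3 CPM (37.5 to 97.3) and 58.8 CPM (43.3 to 77.9) in members against 1549 and 738 CPM (-4.43 and -3.44). Of the 19 UMIs in P1 members, 13 were in 3 cells with 1 Nos1 UMI, and members with at least 3 Nos1 UMIs stood at 24.2 and 32.5 CPM. Mef2c had 344 and 170.2 CPM against 2488 and 1538 CPM (-2.82 and -3.10). Zeb1 and Zeb2, which belong to 1 family, thus stood on opposite sides in these cells. Nr2f1, a nuclear receptor, had 39.4 and 14.7 CPM against 299 and 186 CPM, Npas3 had ratios of -2.74 and -3.26, and Tshz3 of -2.65 and -2.45. Satb1, a chromatin organiser needed for Sst interneurons to mature, had 246 and 186 CPM against 650.4 and 693 CPM, and Maf had 653 and 280.5 CPM against 1923 and 598 CPM. By contrast Lhx6 was at 489 and 407 CPM against 802 and 491 CPM, within the limit.

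Other higher genes taken by the naming rule are given here and in the next paragraph. Chodl (ENSMUSG00000022860, chr16:78930948-78951733) had 505 CPM (428 to 591) in P1 members and 549.9 CPM (500.2 to 603) in P5 members against 14.1 and 8.23 CPM, ratios of 4.42 and 4.94. Ptn, the heparin-binding growth factor pleiotrophin, had 2522 and 3094 CPM against 199 and 134 CPM (3.6 and 4.43), and B3gat1, which makes the HNK-1 sugar of adhesion molecules, had 453 and 360.1 CPM against 27.4 and 12.3 CPM (3.63 and 4.05). Their products bind or make sugar chains around growing neurites. Sfrp1, a secreted inhibitor of Wnt signals, had 407 and 316 CPM against 38.9 and 6.6 CPM, Opcml, a GPI-anchored adhesion protein, 1046 and 976 CPM against 233 and 359.7 CPM, and Man1a, a mannosidase that trims sugar chains in the Golgi, 492 and 316 CPM against 109.8 and 33.6 CPM. Of 24 compared genes of axon guidance and growth, 1 was higher, the adhesion gene Ncam2 (1.33 and 1.43), and 1 was lower, Robo2, a receptor of Slit ligands (-2.40 and -1.83). Col25a1, a membrane collagen, had 164 and 409 CPM against 36.0 and 21.6 CPM.

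Inside the cell, Pcp4, a small protein of calcium signalling, had 908 and 2586 CPM in members against 99.6 and 386 CPM (3.07 and 2.71). Fam46a, whose product adds tails to RNA, had 419.8 and 325 CPM against 22.1 and 25.0 CPM, and Dbpht2 had 672 and 639 CPM against 59.0 and 97.3 CPM. Of 11 compared imprinted genes 1 was higher, Nap1l5, a nucleosome assembly protein (1.26 and 1.11), and 0 were lower, and of 7 stress and immediate early genes 1 was higher, Jun (1.17 and 1.14). The lower genes outside the lists above included Reln, the secreted guidance protein reelin of Martinotti cells, at 39.4 and 31.8 CPM against 353 and 504 CPM (-2.88 and -3.62), Thsd7a, at 9.84 and 18.4 CPM against 201 and 205 CPM, and Kctd12, a partner of GABA-B receptors, at 23.0 and 17.1 CPM against 232 and 192 CPM. Of the Martinotti markers 3 of 4 compared were lower, and of the markers of other Sst interneurons 3 of 4, with medians of -1.31 and -1.77 and of -2.44 and -3.10.

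Lists with few or no genes past 2-fold are read beside the 5.23% of all 1721 genes that passed in each library, a share at which a short list may hold none. Of 7 compared genes for GABA synthesis and uptake 0 were higher and 0 lower, with medians of -0.19 and -0.07: Gad2 had 357 and 464 CPM against 408 and 482 CPM, and Slc32a1 184 and 419 CPM against 238 and 473 CPM. Of 23 compared genes of synaptic vesicles 0 were higher and 1 lower, Snap25, which helps vesicles fuse, at 177 and 71.0 CPM against 423 and 367 CPM. Of 22 genes of immature and migrating neurons 0 were higher and 1 lower, Erbb4. The 1 compared gene of the basket and chandelier list was within 2-fold, and no gene of the excitatory, astrocyte, oligodendrocyte, microglia, and vascular lists reached the minimum in each library.

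**Figure D2:**
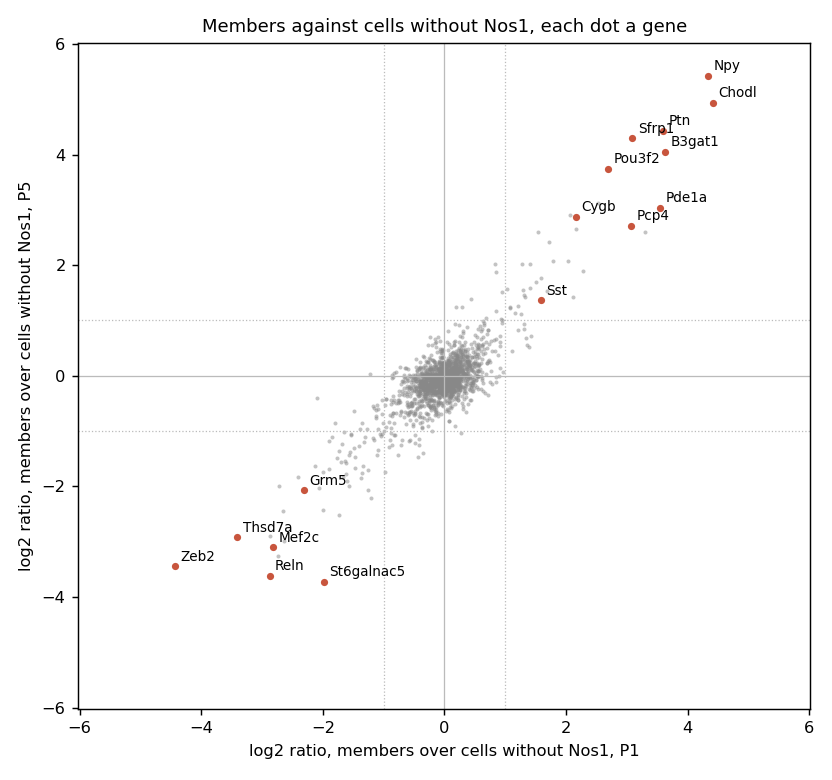
Log2 ratio of members to cells without Nos1 at P1 and at P5 for the genes compared in each library. Dotted lines mark 2-fold.

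Cells with Nos1 and Dach1 and without Lypd1 share the first gate with the members and differ from them in the other gates. Against these 98 and 27 cells, 16 of 1616 genes were higher (0.99%) and 13 lower (0.804%) in members in each library, and 28 of the 29 had intervals that do not overlap in each library. When each cell weighed the same, 13 were higher and 16 lower, so the split moved from 55.2% to 44.8% higher, and other settings that turned it are given in the closing part. The comparison rests on 95193 UMIs of Dach1 cells at P5, where 66 genes were higher and 54 lower of 1986, against 28 and 30 of 2153 at P1. In these P5 cells 1 UMI is 10.5 CPM, so their levels below rest on few UMIs. At P5, 103 of the 120 genes past 2-fold had intervals that do not overlap. In Dach1 cells Npy was at 42898 and 44173 CPM, Chodl at 466 and 347 CPM, and Nos1 itself, part of the rule, at 3693 and 3698 CPM, while 5 of 14 compared genes of the shorter long-range list, Pcp4 among them, passed 2-fold.

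Among the genes higher in members than in Dach1 cells, Crhbp had 338 CPM (276 to 409.7) and 453 CPM (408 to 502) in members against 71.5 and 73.5 CPM in Dach1 cells (2.09 and 2.47), and Gad2 had 133 and 126 CPM there (1.36 and 1.8). Members thus held more mRNA of Crhbp and Gad2 than Dach1 cells did. The whole list for GABA synthesis and uptake, however, summed to 1905 and 2118 CPM in members against 1912 and 1880 CPM. Dlx1, a homeobox factor of ganglionic eminence neurons, had 377 and 363 CPM against 148 and 116 CPM, Igf1, a growth factor, 223 and 271 CPM against 56.7 and 94.5 CPM, and Clmp, an adhesion protein, 269 and 311 CPM against 46.8 and 105 CPM. The splicing regulator gene Rbfox1 had 256 and 223 CPM in members and 23 UMIs (56.7 CPM) and 0 UMIs in Dach1 cells. Ncam2 was at 193 and 344 CPM against 64.1 and 63.0 CPM, and Syt1, the calcium sensor of vesicle release, had ratios of 1.04 and 1.55. With ratios centred on their median, or with each cell weighing the same, 0 genes of synaptic vesicles were higher at P1.

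Among the genes lower in members than in Dach1 cells, Hhip had the smallest ratio in each library. Hhip, which binds and holds Hedgehog ligands, had 3 UMIs (9.84 CPM, 2.03 to 28.8) in P1 members and 19.6 CPM (11.2 to 31.8) in P5 members against 209 and 263 CPM (-3.47 and -3.20). Without the pseudocount, its log2 ratio at P1 was -4.41 (-6.72 to -2.82). Epha4, a receptor of ephrins in axon repulsion, had 85.3 and 61.2 CPM against 535 and 473 CPM, and Ntng1, a netrin relative on axons, 49.2 and 29.4 CPM against 163 and 199.6 CPM. Of 26 compared genes of axon guidance and growth, 2 were higher and 3 lower in members. Rarb, a retinoic acid receptor, had 36.1 and 24.5 CPM against 170.0 and 284 CPM, the proteoglycan gene Spock1 125 and 83.3 CPM against 734 and 420.2 CPM, and the protocadherin gene Pcdh17 52.5 and 129 CPM against 179.9 and 672 CPM.

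Some genes of long-range neurons were higher in Dach1 cells than in members. Pcp4 was at 3021 and 6797 CPM there (-1.72 and -1.39), Tshz2 at 234 and 252 CPM, and Sox1 at 476 and 252 CPM. Lhx6 was also lower in members than in Dach1 cells (-1.43 and -1.5), at 1338 and 1166 CPM in the latter, while Sst was at 9164 and 5862 CPM. Of the 14 compared genes of the shorter long-range list, 2 were thus higher and 3 lower in members, and of 82 genes of the study's long-range list 3 and 6. Transcription factors had 3 of 27 higher and 4 lower. For the other lists, 1 gene was higher and 0 lower among 9 genes of nitric oxide, 3 neuropeptides, 7 modulator receptors, 7 genes of GABA synthesis, 22 of synaptic vesicles, and 11 of the study's Martinotti list, and 0 passed 2-fold among genes for peptide processing, immature neurons, GABA-A subunits, glutamate receptors, ion channels, imprinted genes, stress, and the Martinotti and other Sst markers.

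Nos1 cells with neither Lypd1 nor Dach1, a comparison added after seeing the data, had the fewest genes past 2-fold against the members. In each library 1 of 1678 genes was higher (0.0596%) and 9 were lower (0.536%) in members, with 11 higher and 31 lower of 2226 at P1 and 3 and 14 of 2004 at P5. The gene higher in members, Trib2, a pseudokinase, was named after its values were seen, at 177 and 181 CPM against 78.8 and 81.5 CPM. With a pseudocount of 50 CPM or a minimum of 200 CPM, 0 genes were higher in members. The same held when each cell weighed the same, with at least 3 Nos1 UMIs, and without the 10% deepest cells. Among the lower genes were Mef2c at 344 and 170.2 CPM against 1395 and 539 CPM (-1.99 and -1.61), Grm5 (-1.46 and -1.02), Erbb4 (-1.11 and -1.05), Neto2 (-1.20 and -1.59), and St6galnac5, a sialyltransferase gene, at 62.3 and 19.6 CPM against 189 and 184 CPM. These are genes that were also lower in members than in cells without Nos1. The median number of Nos1 UMIs was 2.5 and 5 in the cells with neither gene against 10 and 11 in members, so these cells differ in the level of the shared gate as well, and its part in the lower genes was not tested. With at least 3 Nos1 UMIs asked of every Nos1 cell, 3 genes passed 2-fold in each library in place of 10.

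**Figure D3:**
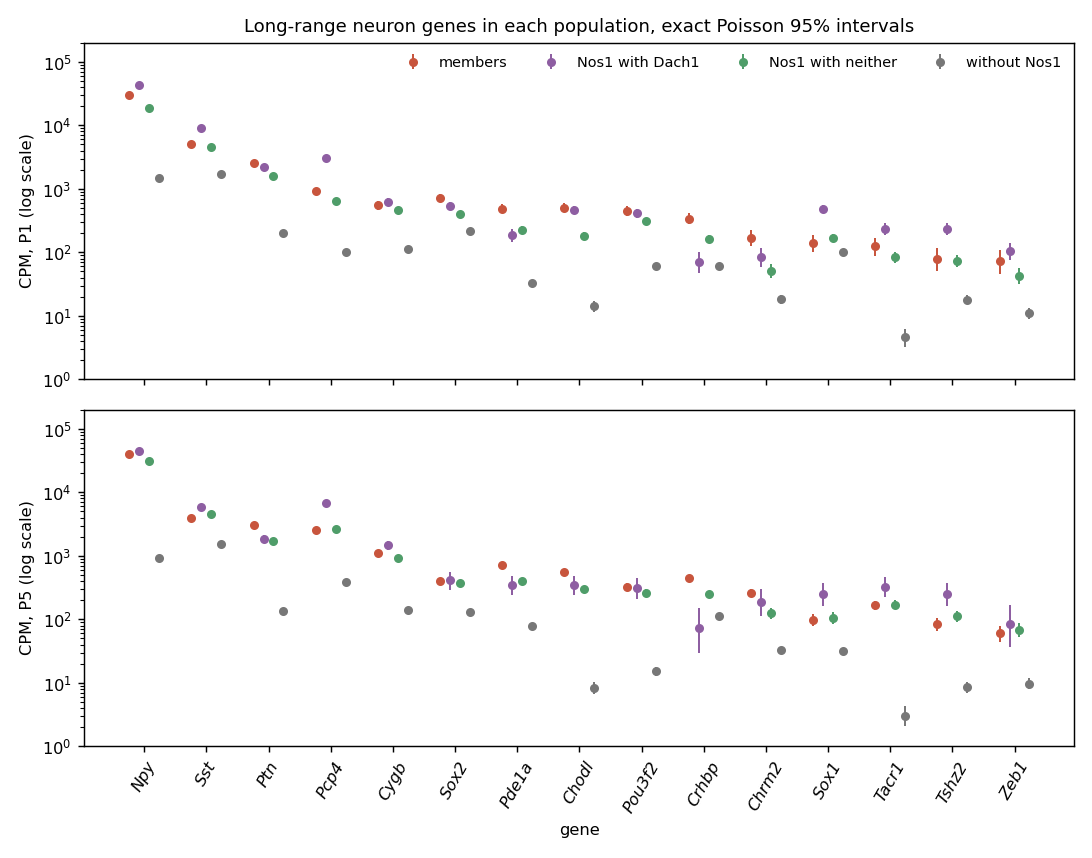
Levels of 15 genes of long-range Nos1 neurons, in CPM with 95% Poisson intervals, in members, in the other groups of Nos1 cells, and in cells without Nos1, at P1 and P5.

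From P1 to P5, members had 147 of 2081 compared genes higher (7.06%) and 164 lower (7.88%), with a median over all genes of -0.03. The small excess of lower genes turned to 166 higher and 146 lower when ratios were centred on their median and to 74 and 70 with a minimum of 200 CPM. The cells without Nos1 had 183 (8.18%) higher and 150 (6.71%) lower of 2237, so the number of genes past the limit was alike in members and in the remaining cells, and much of what follows is shared by them. For all 311 genes of the members the intervals at P1 and P5 do not overlap, which at sums of this size adds nothing to the 2-fold limit. The log2 ratios ran from -3.97 to 3.31. Among the higher genes were several of synaptic vesicles, and among the lower ones transcription factors of young neurons.

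The largest rise was that of Mt3, which binds zinc, from 75.4 CPM (47.8 to 113) to 837 CPM (775 to 902) in members, a log2 ratio of 3.31 beside 2.72 in cells without Nos1. Selenom, a selenoprotein of the endoplasmic reticulum, rose from 75.4 to 545 CPM (2.70 beside 2.58), and Fxyd7, a regulator of the sodium pump, from 98.4 to 593 CPM (2.48 beside 2.31). Mt3, Selenom, and Fxyd7 thus rose both in members and in the other sorted cells. Each ratio was somewhat larger in members, a difference that was not tested. Hap1, a huntingtin partner in vesicle transport, rose from 45.9 to 261 CPM (2.28 beside 1.21), and Ptprn, a protein of dense-core vesicles, which store peptides, from 55.8 to 299 CPM (2.23 beside 1.88). Gapdh, the glycolytic enzyme, rose from 282 to 964 CPM (1.74 beside 1.71), and Thra, a thyroid hormone receptor, from 282 to 936 CPM (1.70 beside 0.75). Thy1, a surface protein of mature neurons, had ratios of 1.91 and 3.53, and of its 21 UMIs in P1 members 52.4% came from 1 cell. The other genes among the 12 largest were Tspan17 (2.24), AY036118 (2.10), D8Ertd738e (1.91), and Rasgrp2 (1.82).

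More genes of synaptic vesicles were higher than lower, with 5 of 23 compared higher and 2 lower past 2-fold, 17 above 0, and a median of 0.71 in members beside 0.98 over the same genes in cells without Nos1. Without the member that carries excitatory markers 6 were higher and 1 lower, as with at least 3 Nos1 UMIs. When each cell weighed the same, 8 were higher and 2 lower. Vamp2, the vesicle protein that drives fusion, went from 328 to 857 CPM (1.36 beside 1.55), Cplx2, a clamp of the fusion machinery, from 495 to 1322 CPM (1.40 beside 1.62), and Sncb from 144 to 469 CPM (1.63 beside 2.06). Syn1 (1.21) and Napb (1.21) were the other genes to rise. Snap25 was among the lower ones, at 177 and 71.0 CPM (-1.21 beside -0.20). In the list for GABA synthesis and uptake Slc32a1 rose from 184 to 419 CPM (1.15 beside 0.96), the 1 gene of 7 past the limit. With at least 3 Nos1 UMIs, 0 of these 7 passed it. GABA-A subunits had 0 of 3 past 2-fold (median 0.44), glutamate receptors 1 of 15 higher, Grin1, and 1 lower, Gria2, and ion channels 1 of 21 higher, Fxyd7, with a median of 0.37 beside 0.51 over the 18 compared in both groups.

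Of all 2081 genes compared between the stages in members, 14.9% passed 2-fold, a share beside which the lists are given. Of 13 compared genes of the shorter list 1 was higher, Pcp4, from 908 to 2586 CPM (1.5 beside 1.85), and 0 were lower, with 9 above 0 and a median of 0.39. Over the 6 of them compared in cells without Nos1 as well, the median was 0.36 in members and -0.35 in those cells. Chodl had a ratio of 0.12, Sst of -0.38, and Npy of 0.42, all within 2-fold. Of the 90 compared genes of the study's long-range list, 7 were higher and 4 lower. Its Martinotti list had 3 of 14 higher and 0 lower in members (median 0.72 beside 0.98), and its list for other Sst interneurons 0 of 10 higher and 3 lower (-0.53 beside -0.68), where each pair of medians is over the same genes and the lists moved in the same direction in cells without Nos1.

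Among peptide genes Penk rose. It went from 49.2 CPM (27.5 to 81.1) to 156 CPM (129.7 to 185), a ratio of 1.48 beside 0.39, as the 1 of 4 compared genes of the neuropeptide list past 2-fold. When each cell weighed the same, 3 genes of this list were compared and 0 passed 2-fold. Pcsk1n, an inhibitor of peptide convertases, rose from 784 to 2196 CPM (1.47 beside 0.93), the 1 of 8 genes for peptide processing past the limit. Calm3, a gene of calcium signalling, was the 1 of 9 nitric oxide genes to pass it, from 298 to 761 CPM (1.32 beside 1.27), and Stmn3, a regulator of microtubules, the 1 of 25 axon genes, from 1118 to 2565 CPM. Of 8 modulator receptors 0 were higher and 1 lower, Igf1r, the receptor of insulin-like growth factor, from 174 to 29.4 CPM (-2.22 beside -2.04). Imprinted genes had 0 of 11 past 2-fold, with a median of 0.37.

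Transcription factors had 0 of 27 higher, 7 lower, and 2 above 0, and over the 22 compared in both groups a median of -0.60 beside -0.69 in cells without Nos1. Sox11, a factor of young neurons, had 1745 CPM (1599.6 to 1899.5) at P1 and 650.4 CPM (596 to 708) at P5 (-1.41 beside -2.15), and its relative Sox4 1217 and 579 CPM (-1.06 beside -1.33). Tcf4, the most abundant factor of the list, had 2391 and 1189 CPM, and Bcl11b, known from long axons of deep-layer excitatory neurons, 646 and 252 CPM (-1.32 beside -1.06). The other lower factors were Maf (-1.19), Tcf12 (-1.04), and the corepressor gene Tle4 (-1.20 beside -0.21). The number of lower factors was 6 when ratios were centred on their median or ribosomal protein genes were left out of the total. With at least 3 Nos1 UMIs it was 8. Of 22 genes of immature neurons 0 were higher and 4 lower, among them Cd24a, a surface protein of young neurons, at 429.6 and 127 CPM (-1.68 beside -2.23), and Mex3a, an RNA-binding protein (-1.8 beside -2.01). The marker lists for Martinotti and other Sst cells had 0 of 3 and 0 of 2 higher and 0 and 1 lower, the latter being Sox4. The 1 compared astrocyte gene was Mt3, the 1 compared gene of the basket and chandelier list had a ratio of 0.27, and the excitatory, Meis2, oligodendrocyte, microglia, and vascular lists had no gene past the minimum.

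Among the 12 smallest ratios, Pabpc1, which binds the tails of mRNA, fell from 1725 CPM (1581 to 1879) to 170.2 CPM (143 to 201), a ratio of -3.27 beside -2.95, and Snrpf, a core protein of the spliceosome, from 289 to 18.4 CPM (-3.40 beside -3.06). AC160336.1 had 1069 and 58.8 CPM (-3.97 beside -3.38), and Snhg6, a host gene of a small nucleolar RNA, a ratio of -3.17 beside -2.68. The shifts of Pabpc1, Snrpf, Snhg6, and AC160336.1 had the same direction in members and the other cells. Each was somewhat larger in members, a difference that was not tested. The part of the counting software in these shifts was not tested. Nrgn (-3.92 beside 1.66) rests at P1 on 1 cell, the member with excitatory markers. Phlda1, which is induced by stress and growth signals, went from 449 to 90.6 CPM (-2.19 beside -1.61). Of 10 stress genes 2 were higher, Jund (1.18) and Cdkn1a (1.56), and 2 lower, Phlda1 and Hsp90b1 (-1.06). Bex4 (-2.36), Sem1 (-2.18), Selenof (-2.04), and Araf (-2.02) were also among the 12 smallest.

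**Figure D4:**
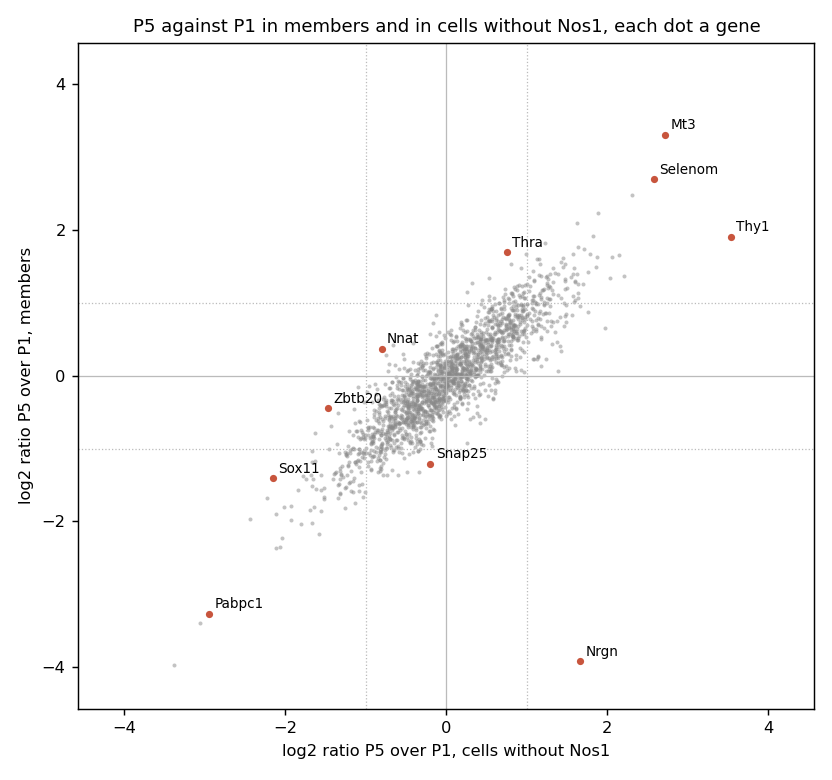
Log2 ratio of P5 to P1 in members and in cells without Nos1 for the genes compared in both groups. Dotted lines mark 2-fold.

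The genes whose stage ratio differed most between members and cells without Nos1 were named after their values were seen. For 1796 of 2081 genes (86.3%) the ratios were within 0.5, for 12 the ratio in members was higher by at least 1, and for 14 lower by at least 1. Npy is among the 12, with 0.42 in members and -0.66 in the other cells, as are Sfrp1 (-0.35 and -1.56), Pou3f2 (-0.46 and -1.51), Gucy1a1 (-0.01 and -1.06), Nnat, an imprinted proteolipid gene of young neurons (0.37 and -0.80), Zbtb20 (-0.45 and -1.47), and Col25a1 (1.27 and -0.54). For these without Col25a1, and for Dpy19l1 and Unc5d, the ratios lay between -0.46 and 0.42 in members and between -1.56 and -0.66 in the other cells. The remaining 3 of the 12 were above 0 in both, Hap1 (2.28 and 1.21), Penk (1.48 and 0.39), and Ccdc28b (1.44 and 0.43). Gucy1a1, for example, was at 387 and 383 CPM in members but went from 126 to 55.2 CPM in the other cells, and Zbtb20, a zinc finger repressor, at 1194 and 873 CPM in members. Among the 14 were Thy1 and Snap25, given above, and Nrgn, which rests on 1 cell.

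How members differ among themselves was read after thinning to 2000 UMIs, as the variance of a gene's UMIs over its mean, which is near 1 for counting error alone. Over 1924 genes at P1 and 1834 at P5 the median was 1.03 and 1.05, and 21 genes in each library were above 2, named here after their values were seen. Npy had the largest value, at 18.2 and 25.3 beside 17.7 and 41.6 in cells without Nos1, on a measure that grows with the mean of a gene that varies, with a median of 58 and 68 UMIs per thinned member, up to 176 and 233, and 2 and 4 members without any. Members are thus alike in carrying Npy but not in how much. The second largest value at P1, that of Nrgn at 12 beside 4.96, rests on the 1 member with excitatory markers. The other 50 thinned members held no UMI of it. Of the 21 genes, 11 at P1 and 10 at P5 had a larger value in members than in cells without Nos1, and the others a smaller one. Syt1 was larger in members in each library, at 2.11 and 2.55 beside 1.69 and 1.56, whereas Sst was at 3.16 and 4.85 beside 8.03 and 9.61 there, Meg3, an imprinted RNA, at 5.05 and 4.71 beside 8.01 and 6.27, Malat1, a nuclear RNA, at 10.8 and 5.54 beside 18.5 and 6.29, and Mef2c at 3.96 and 3.40 beside 4.32 and 4.36. Before thinning, 5 of all 55 P1 and 11 of all 221 P5 members had at least 3 UMIs of Mef2c and Zeb2, with a median of 1 and 2 Nos1 UMIs and a depth of 7365 and 6191 UMIs. The gating genes Nos1, at 2.55 and 2.14, and Lypd1, at 0.670 and 0.778, are given as a description.

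Promoters were searched because the factor genes Pou3f2 and Sox2 are among the genes higher in members, and whether these genes vary together was not tested. The windows, 250 bases before to 50 after the start of a gene, come from RefSeq on GRCm38.p6 and cover 32851 promoters, matched by symbol. Of them 40 belong to 32 of the 36 genes higher in members than in cells without Nos1 and 73 to 41 of the 54 lower ones, counting several per gene, while Cygb, Fam46a, Nkain3, and Sfrp1 had none under these names. The octamer ATGCAAAT of POU factors, read on both strands as ATGCAAAT or ATTTGCAT, is in 1.74% of all promoters, in 1 of the 73, and in 1 of the 40, that of Sh3gl3, which encodes an endophilin of vesicle uptake. RefSeq lists Fam46a as Tent5a, which is not among the 40, and 1 of its 2 promoters also holds the octamer. The cAMP response element TGACGTCA is in 1.79% of all, in 0 of the 73, and in 1 of the 40, that of Sst, and its core TGACG, which overlaps it, is in 20.8% of all, in 6 of the 40, and in 10 of the 73. The SOX motif ACAAAG is in 18.7% of all, in 5 of the 40, and in 20 of the 73. In the 3005 promoters of genes past the minimum in a comparison, a closer match to genes that could be called, the shares were 1.26% for the octamer, 3.89% for the cAMP response element, 33.0% for its core, and 13.6% for the SOX motif. A match describes the letters and is not evidence of binding. The promoters below, chr16:23890795-23891094 on the minus strand and chr7:82174546-82174845 on the plus strand, are shown because they hold the full matches to the first 2 motifs among the 40, with the match in capitals.
Sst: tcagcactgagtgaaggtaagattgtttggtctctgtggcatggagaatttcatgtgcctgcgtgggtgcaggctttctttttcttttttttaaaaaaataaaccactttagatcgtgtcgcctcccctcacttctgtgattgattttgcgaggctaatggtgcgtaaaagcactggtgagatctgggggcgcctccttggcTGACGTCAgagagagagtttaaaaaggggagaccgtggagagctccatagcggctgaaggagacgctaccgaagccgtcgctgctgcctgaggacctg
Sh3gl3: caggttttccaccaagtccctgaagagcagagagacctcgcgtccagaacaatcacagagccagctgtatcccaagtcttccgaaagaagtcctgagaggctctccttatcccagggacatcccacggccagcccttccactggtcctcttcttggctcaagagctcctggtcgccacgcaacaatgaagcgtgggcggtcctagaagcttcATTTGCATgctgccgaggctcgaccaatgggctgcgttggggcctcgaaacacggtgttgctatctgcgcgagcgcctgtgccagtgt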

How the data were processed

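GFP+ neocortical cells of 1 pool of animals per stage were read at P1 and P5. The authors aligned reads to GRCm38 with Cell Ranger and deposited, for each library, a count of UMIs per gene and cell, as whole numbers for 31053 genes, without normalization. At P1, 55 members hold 322924 UMIs and at P5, 221 members hold 849297, which sets the precision of each level. The E16.5 library, with 1 cell that meets the gates among 67 with Nos1, was left out of all comparisons.

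Sums per group and library were scaled to CPM outside mitochondrial and gating genes, with a pseudocount of 10 CPM, a minimum mean of 100 CPM over the groups compared, and a limit of 2-fold. No test was made. Gene coordinates came from GENCODE release M21, which matched 99.6% of the genes, and promoters from RefSeq. Python 3.11.15, numpy 2.4.6, scipy 1.17.1, pandas 2.3.3, and matplotlib 3.10.9 were used. Random thinning had a fixed seed. Ratios and intervals were tested on simulated counts with changes well past 2-fold and counting error alone. Genes near the limit and variation between cells were not covered by these tests.

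The naming rule takes, among genes whose intervals do not overlap, the 12 largest and 12 smallest P5 to P1 ratios, the 15 highest and 10 lowest against cells without Nos1, and the 8 highest and 8 lowest against Dach1 cells. Whether or not intervals overlap, it adds all 15 genes of the shorter long-range list and, from 27 lists in all, members past 2-fold, the most abundant member, and markers of other cells. Mitochondrial, ribosomal protein, Xist, and Y-linked genes were not named. A few genes that the rule takes are not described. Members and lists were chosen with earlier results of these data known. In all, 39 alternatives in 15 settings were planned, and others were added after seeing the data.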

Additional observations from a re-analysis of the deposited data

How the results depend on the processing

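The number of members, 276, was 212 to 294 under 5 of the 6 alternatives, and 135 (20 at P1 and 115 at P5) when at least 2 Lypd1 UMIs were asked for, which asks for more by construction. Counts of genes past 2-fold depend on how many genes are compared and on the pseudocount. With a minimum mean of 50 CPM they were 592 for P5 against P1, 153 against cells without Nos1, 62 against Dach1 cells, and 17 against cells with neither gene, with 200 CPM 144, 32, 12, and 1, and with no minimum beyond 1 UMI 1414, 342, 200, and 57, in place of 311, 90, 29, and 10. A pseudocount of 50 CPM, which shrinks ratios of low genes, gave 182 for P5 against P1 and 4 against cells with neither gene. The last comparison also fell to 5 genes, all lower, when each cell weighed the same, to 3 with at least 3 Nos1 UMIs, to 4 with stricter limits on genes and mitochondrial UMIs (less than 5%), and to 4 without the 10% deepest cells, and the cause was not tested. The split by direction turned in some settings: against cells without Nos1 from 36 higher and 54 lower to 34 and 30 under the stricter limits and 18 and 14 at 200 CPM, with 38 and 40 without the deepest cells, and for P5 against P1 from 147 and 164 to 166 and 146 when ratios were centred on their median and 74 and 70 at 200 CPM. Against Dach1 cells 16 higher and 13 lower turned to 13 and 16 when each cell weighed the same, 27 and 35 at 50 CPM, 94 and 106 with no minimum, 14 and 15 when centred, and 15 and 16 without the deepest cells. Under the remaining settings these counts were 312 to 426, 64 to 98, 22 to 35, and 10 to 11, within 1.5 times the main count.

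Without the member that carries excitatory markers, an alternative chosen after seeing the data, 275 members remain, and the counts were 332, 93, 31, and 11. The comparison with cells that have neither gene and its alternatives were likewise chosen after seeing the data. For 935 gene results there were 10953 alternative values, of which 2477 come from other minimum means, which cannot move a ratio. Same means inside the counting interval of the gene's ratio, or moved by no more than that interval's mean reach to either side. Genes with few UMIs have wide intervals, so they could move far and still count as same. All 935 values stayed the same with a pseudocount of 1 CPM, and all 935 without ribosomal protein genes, but 712 of 871 under stricter limits on cells. Of the 8476 values outside the other minimum means, 7914 (93.4%) stayed the same, 561 moved, and 1 reversed. It is the ratio of members to cells with neither gene at P1 under the same stricter limits, with 25 P1 members left: Pou3f3 went from -1.08 to 0.15, and the cause was not tested. No scaling moved the median of all genes by more than 0.07. No paired analysis was possible because each stage has 1 library of pooled animals. Depth limits what can be read: 1 UMI more or less of Lypd1 or Dach1 decides whether many Nos1 cells are members, and genes with a mean below 100 CPM over the groups compared were left out of the counts.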

Other observations

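In the E16.5 library 3952 of 4478 cells passed the limits, and 67 of them had a Nos1 UMI. Of these, 1 cell also had Lypd1 and no Dach1 (1.49%, 0.0378 to 8.04), 22 had Dach1 and no Lypd1, and 43 had neither. The libraries of E16.5 and P1 share 3 cell barcodes and those of E16.5 and P5 share 1.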
